A study of Mus musculus with 12 samples.

Results

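Interferon-stimulated genes are the genes whose transcription rises when a cell senses an interferon or a viral nucleic acid. A hand-written list of 39 such mouse genes was followed across sorted mammary cells, and 36 of the 39 could be read from a probeset that names a single gene, out of 19938 genes measured that way. The list is one of named genes, and it was chosen with earlier results of these data known. No member was left out for low values. Irf1 alone among the members had 2 probesets, and the brighter of them was used. Isg15, the ubiquitin-like modifier, shared its probeset with Gm9706, and Gbp2, a guanylate-binding GTPase, shared its probeset with Gbp2b, so neither was given a value. Ifi44 had no probeset in the gene table used here. The 36 genes fall into 11 effectors directed at RNA, 3 RNA sensors, 8 other antiviral proteins, 6 genes of ubiquitin and ADP-ribose transfer, 5 transcription factors and 3 genes of antigen processing.

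RNA came from 12 samples, each on 1 Affymetrix gene array, in 4 groups of 3. The Wnt4-deleted mice were MMTV::Cre+.Wnt4fl/fl.mT/mG females and the control (WT) mice were MMTV::Cre+.Wnt4wt/wt.mT/mG females, both 10 to 14 weeks old. All 4 groups therefore carried the MMTV::Cre transgene, a recombinase driven by the mouse mammary tumour virus promoter in mammary epithelium, and the mT/mG reporter, which turns on GFP where Cre has acted. After depletion of lineage-positive cells, GFP+ cells were sorted into CD24 high cells, which the labels call luminal, and CD24 low cells, which they call myoepithelial. One label field speaks of grafts and the design text of glands, the number of mice behind an array is not given in the sources used here, and no label ties an array to 1 of the independent experiments. The p-values below therefore speak only of how much these arrays varied, which may be technical. Arrays are named by the number in their title. Arrays 4, 12 and 16 hold Wnt4-deleted CD24 high cells, arrays 2, 10 and 14 WT CD24 high cells, arrays 3, 11 and 15 Wnt4-deleted CD24 low cells, and arrays 1, 9 and 13 WT CD24 low cells. The numbers form 3 sets, 1 to 4, 9 to 12 and 13 to 16, each with 1 array of every group.

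Type I interferons bind the Ifnar1 and Ifnar2 receptor on nearly every cell, type II interferon binds Ifngr1 and Ifngr2, and type III interferons bind Ifnlr1 and Il10rb, mainly on epithelia. Type I and III receptors activate Stat2, which acts in a complex with Irf9 at interferon-stimulated response elements, while type II signalling works mostly through gamma-activated sites. The products of the responding genes degrade or trap viral RNA, block protein synthesis, restrain virus budding and load peptides for display to T cells. Many of these genes are also transcribed at a lower level without infection, and a few, Irf1 among them, answer to other signals as well.

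Both binding elements can be read in the promoters. RefSeq windows (GRCm38.p6) of 300 bases, with 250 before and 50 after each transcription start, were found for 30 of the 39 listed genes. The letters GAAA, then 2 bases of any kind, then GAAA, the core of the response element, occurred on either strand in 13 of the 30 genes, against 3.99% of all 27025 genes with a window. The letters TTCNNNGAA, the core of the gamma-activated site, occurred in 8 of the 30 genes, against 9.55% of all genes. These are matches of letters and not measured binding. The stretches below all come from genes with a match that the array results describe. Isg20 and Irf1 differed between the cell fractions in both genotypes, and Gbp3 did so in Wnt4-deleted mice. Ifit1, Ifit3 and Bst2 were among the genes with large differences between arrays or sets. Ifih1 and Ddx58, which passed between fractions in WT mice, hold the response element letters too and are not printed. Dtx3l, Mx2, Parp9 and Parp14, which also passed between fractions, are not among the genes with a match. A listed gene without a window could not have a match. Whether the elements go with the array results was not tested. Each is printed 5′ to 3′ on the gene's strand and ends before the start of the RefSeq transcript its window was built on, with the letters that match either element in capitals. For Isg20, Gbp3 and Ifit3 that start lies inside the annotated span of the gene, downstream of its outermost start. Isg20 lies at chr7:78913331-78913399 (plus strand), Irf1 at chr11:53769904-53769972 (plus), Gbp3 at chr3:142559979-142560043 (plus), Ifit1 at chr19:34640765-34640853 (plus), Ifit3 at chr19:34583353-34583456 (plus) and Bst2 at chr8:71537547-71537622 (minus).
Isg20: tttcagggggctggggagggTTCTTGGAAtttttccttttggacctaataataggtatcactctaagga
Irf1: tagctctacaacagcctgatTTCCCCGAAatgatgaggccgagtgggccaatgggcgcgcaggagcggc
Gbp3: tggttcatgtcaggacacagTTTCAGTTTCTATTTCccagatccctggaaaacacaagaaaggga
Ifit1: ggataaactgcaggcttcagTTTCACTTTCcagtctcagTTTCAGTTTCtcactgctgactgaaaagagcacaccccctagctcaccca
Ifit3: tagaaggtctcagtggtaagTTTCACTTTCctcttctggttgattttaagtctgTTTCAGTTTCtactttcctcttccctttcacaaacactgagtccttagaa
Bst2: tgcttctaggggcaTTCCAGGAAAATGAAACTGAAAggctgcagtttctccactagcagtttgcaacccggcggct
The Isg20 and Irf1 stretches hold the gamma-activated letters once each. The other 4 hold the response element letters with 2 matches each, which overlap in Gbp3 and Bst2, and in Bst2 a match of the gamma-activated letters overlaps them as well. In Gbp3, Ifit1 and Ifit3 they read as TTTC, since the match is on the other strand.

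The values are log2 values after the authors' RMA normalisation, and a probeset's value can be compared between arrays but not with that of another gene. Wnt4 itself stood at 6.11, 6.46 and 6.78 in Wnt4-deleted CD24 high cells and at 7.42, 7.92 and 7.62 in WT CD24 high cells, a log2 change of -1.20 ± 0.19 (SE) whose adjusted p over all genes was 0.416 (limma). In CD24 low cells Wnt4 stood at 6.20, 6.66 and 6.28 in Wnt4-deleted mice and 6.49, 6.45 and 6.63 in WT mice. All 11 luminal markers lay higher and all 11 myoepithelial markers lower in CD24 high than in CD24 low cells of both genotypes. At an adjusted p of 0.05, 11 luminal markers passed in Wnt4-deleted and 10 in WT mice, where 8.23% and 7.93% of all genes were higher, and 10 and 11 myoepithelial markers passed, where 8.22% and 8.21% were lower. The CD24 low arrays also carried RNA of other cells. The mean of 11 endothelial markers was 5.02 to 6.39 in CD24 high cells, against 6.44 and 6.54 on CD24 low arrays 3 and 1 and 8.0 to 9.13 on CD24 low arrays 11, 15, 9 and 13. The mean of 8 skeletal muscle markers was 8.85 on array 3 and 7.76 on array 1, against 5.34 to 5.77 on the other CD24 low arrays. Fibroblast and pericyte markers stood apart on arrays 11 and 9. The mean of 8 fibroblast markers was 8.69 and 9.25 there, against 6.29 to 7.04 on the other CD24 low arrays, and that of 6 pericyte markers was 7.30 and 6.85, against 5.72 to 6.29. The mean of 7 leukocyte markers ranged from 4.31 to 4.65 in CD24 high cells and from 4.45 to 5.58 in CD24 low cells, highest on arrays 9, 15 and 11. The part of these cells in the differences below was not tested, and in such bulk RNA more cells of a type and more RNA per cell cannot be told apart.

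**Figure D1:**
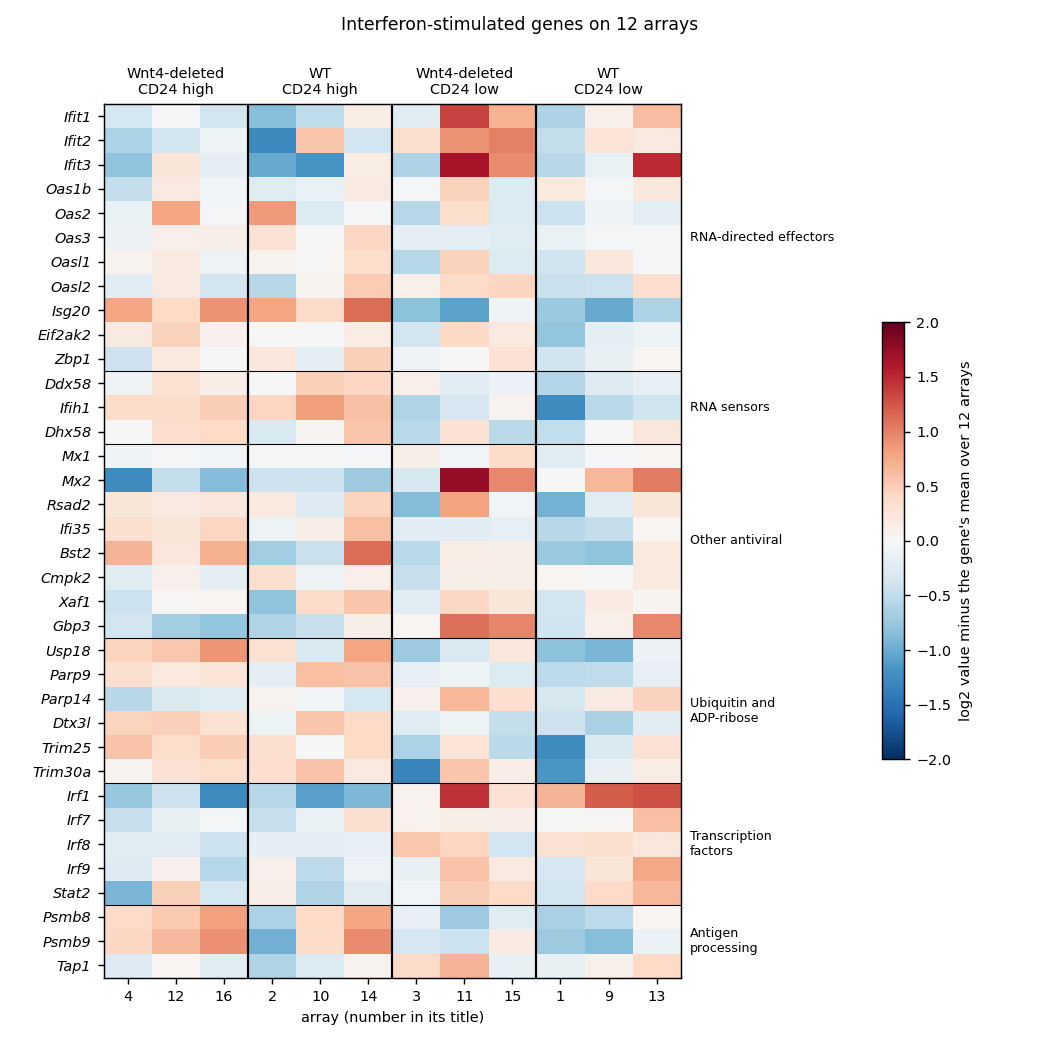
The 36 measured interferon-stimulated genes (rows, grouped by role) on 12 arrays (columns, 3 per group). Colour is the RMA log2 value minus the gene's mean over all 12 arrays; red is higher. Isg20 is red on all 6 CD24 high arrays. Irf1 lies above its mean on all 6 CD24 low arrays, though only just on array 3, where its colour is nearly white. Most genes of arrays 1 and 3 are blue beside the other arrays of their groups.

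The first question was how these genes differed between luminal CD24 high and myoepithelial CD24 low cells. They did not move as a group. In Wnt4-deleted mice 2 genes were higher and 4 were lower in CD24 high cells, so 6 of 36 passed the threshold, an adjusted p of 0.05 (limma, Benjamini-Hochberg over all genes), where 16.4% of all genes did, 8.23% higher and 8.22% lower. In WT mice 5 were higher and 1 was lower, again 6 of 36, where 16.1% of all genes passed, 7.93% higher and 8.21% lower. Isg20, Dtx3l and Irf1 passed in both genotypes, and 9 genes in either. The median log2 change over the 36 genes was 0.07 in Wnt4-deleted mice and 0.20 in WT mice, beside 0.01 and 0.02 over all genes. Of the 36 changes 18 lay above 0 in Wnt4-deleted mice, where 51.1% of all genes did, and 23 in WT mice, where 53.7% did. An unadjusted p under 0.05 was found for 13 members in Wnt4-deleted mice, beside 27.9% of all genes, and for 11 in WT mice, beside 26.4%. The share of members that passed was close to that of all genes.

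Isg20 encodes an exonuclease that degrades single-stranded RNA, and it showed the largest rise among the 36 genes in both genotypes. Its log2 values were 8.74, 8.36 and 8.86 on Wnt4-deleted CD24 high arrays 4, 12 and 16, against 7.14, 6.89 and 7.87 on Wnt4-deleted CD24 low arrays 3, 11 and 15. The WT CD24 high arrays 2, 10 and 14 gave 8.75, 8.34 and 9.08, against 7.22, 6.95 and 7.32 on WT CD24 low arrays 1, 9 and 13. Every CD24 high array lay above every CD24 low array in both genotypes. The log2 change was 1.35 ± 0.26 (SE, n = 3 arrays per group) in Wnt4-deleted mice, a fold of 2.56 with adjusted p = 0.0042, and 1.56 ± 0.26 in WT mice, a fold of 2.94 with adjusted p = 0.00179. The WT call held in each of 19 alternatives, whereas the Wnt4-deleted call ended when arrays 1 to 4 were left out (log2 change 1.23, adjusted p = 0.0642, the highest of a range from 0.00016).

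Of the 3 RNA sensors, Ifih1 and Ddx58 were higher in CD24 high than in CD24 low cells of WT mice. None passed in Wnt4-deleted mice in the fit without the sets as a block, though Ifih1 did under some other alternatives, such as median centring. Ifih1, known as MDA5, recognises long double-stranded RNA, and Ddx58, known as RIG-I, recognises RNA with an uncapped triphosphate end. Ifih1 stood at 7.90, 8.30 and 8.06 in WT CD24 high cells against 6.22, 6.94 and 7.07 in WT CD24 low cells, a log2 change of 1.35 ± 0.23 (adjusted p = 0.00193). In Wnt4-deleted mice its values were 7.85, 7.84 and 7.96 in CD24 high cells and 6.88, 7.14 and 7.55 in CD24 low cells, which also did not overlap, with a log2 change of 0.69 ± 0.23 and an adjusted p of 0.0622 (0.0204 with the sets as a block). Ddx58 stood at 7.98, 8.46 and 8.39 in WT CD24 high cells against 7.39, 7.73 and 7.81 in WT CD24 low cells (0.63 ± 0.17, adjusted p = 0.0266). In Wnt4-deleted mice the Ddx58 change was 0.20 ± 0.17 (adjusted p = 0.517) and the arrays overlapped. That the sensors differed between genotypes was not shown: the difference of changes, Wnt4-deleted minus WT, was -0.65 ± 0.32 for Ifih1 with an adjusted p of 1.0. Dhx58, another member of this helicase family that lacks the signalling domain, was dim and gave 0.51 ± 0.28 in Wnt4-deleted mice and 0.19 ± 0.28 in WT mice, neither past the threshold.

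Parp14, Dtx3l and Parp9 are neighbouring genes on chromosome 16, and their products act in ADP-ribose and ubiquitin transfer; Dtx3l is a ubiquitin ligase that forms a complex with Parp9. Dtx3l gave 7.85, 7.89 and 7.70 in Wnt4-deleted CD24 high cells against 7.17, 7.29 and 6.93 in Wnt4-deleted CD24 low cells, a log2 change of 0.68 ± 0.18 (adjusted p = 0.0255). In WT mice it gave 7.30, 7.97 and 7.81 in CD24 high cells against 6.99, 6.75 and 7.20 in CD24 low cells (0.71 ± 0.18, adjusted p = 0.021). Parp9 gave 7.17, 7.96 and 7.92 in WT CD24 high cells against 6.83, 6.85 and 7.20 in WT CD24 low cells, where array 2 lay just below array 13 (0.72 ± 0.20, adjusted p = 0.0266). The Parp9 change in Wnt4-deleted mice was 0.43 ± 0.20 (adjusted p = 0.185) with no overlap of the arrays. Parp14, a mono-ADP-ribosyltransferase next to Dtx3l, ran the other way. It stood at 7.03, 7.30 and 7.34 in Wnt4-deleted CD24 high cells against 7.68, 8.25 and 7.92 in Wnt4-deleted CD24 low cells, a log2 change of -0.73 ± 0.21 (adjusted p = 0.0379). In WT mice the Parp14 arrays overlapped and the change was -0.22 ± 0.21 (adjusted p = 0.614).

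Irf1 is a transcription factor of the interferon regulatory family that is itself induced through gamma-activated sites. It showed the largest fall in WT mice, with 8.30, 7.78 and 7.97 in WT CD24 high cells against 9.54, 10.08 and 10.15 in WT CD24 low cells (-1.90 ± 0.34, adjusted p = 0.00279). In Wnt4-deleted mice it gave 8.11, 8.46 and 7.61 in CD24 high cells against 8.93, 10.31 and 9.15 in CD24 low cells (-1.40 ± 0.34, adjusted p = 0.0159). The groups did not overlap in either genotype. A second, dimmer Irf1 probeset moved in the same direction, by -1.01 in Wnt4-deleted and -1.17 in WT mice. The other 4 factors, Irf7, Irf8, Irf9 and Stat2, had changes between -0.54 and -0.30 in the 2 genotypes, none past the threshold.

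Mx2, a dynamin-like antiviral GTPase, and Gbp3, a guanylate-binding GTPase that acts on intracellular pathogens, were lower in Wnt4-deleted CD24 high cells. Mx2 gave 4.11, 4.89 and 4.50 in Wnt4-deleted CD24 high cells against 5.05, 7.11 and 6.32 in Wnt4-deleted CD24 low cells, a log2 change of -1.66 ± 0.44 (adjusted p = 0.0241). In WT mice Mx2 gave 4.95, 4.94 and 4.65 in CD24 high cells against 5.38, 6.03 and 6.41 in CD24 low cells, which did not overlap, with a change of -1.09 ± 0.44 that did not pass (adjusted p = 0.133). Gbp3 gave 5.55, 5.23 and 5.13 in Wnt4-deleted CD24 high cells against 5.95, 7.02 and 6.89 in Wnt4-deleted CD24 low cells (-1.32 ± 0.36, adjusted p = 0.0276). In WT mice the Gbp3 arrays overlapped (-0.54 ± 0.36, adjusted p = 0.408). Within the sets 1 to 4, 9 to 12 and 13 to 16, Mx2 in Wnt4-deleted mice changed by -0.94, -2.22 and -1.83 and Gbp3 by -0.41, -1.80 and -1.75. Irf1 gave -0.83, -1.85 and -1.54 in the same order. The Wnt4-deleted CD24 low arrays of these sets, 3, 11 and 15, had endothelial marker means of 6.44, 9.13 and 8.92. Their skeletal muscle means were 8.85, 5.77 and 5.34. The fibroblast, pericyte, leukocyte and macrophage and dendritic means were also lowest on array 3. The part of these cells was not tested. Mx2 was among 7 members under a brightness filter, and with that filter it was not tested. The others were Ifit2, Mx1, Oas1b, Oas3, Dhx58 and Cmpk2.

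**Figure D2:**
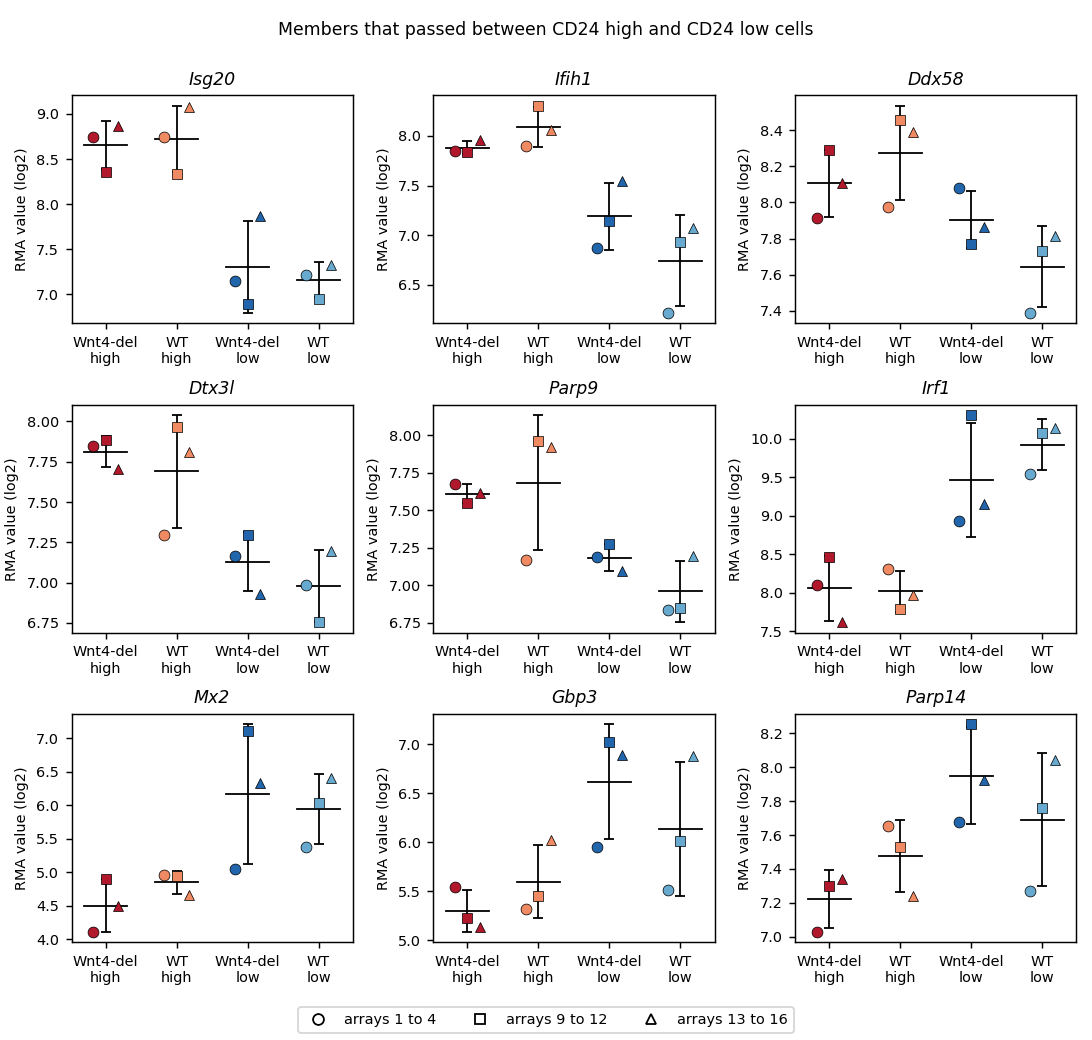
RMA log2 values per array of the 9 genes that passed between CD24 high and CD24 low cells in at least 1 genotype. Points are arrays, with a symbol for each set of title numbers, bars are group means and whiskers are SD (n = 3). For Isg20 all 6 CD24 high points lie above all 6 CD24 low points and for Irf1 all lie below; the CD24 low points of Mx2 and Gbp3 are lowest for arrays 1 and 3.

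None of the 3 genes of antigen processing passed between the fractions in the fit without the block. Psmb8 and Psmb9 did pass under some of the other alternatives, such as leaving out array 2. Psmb8 and Psmb9 encode subunits of the immunoproteasome and flank Tap1, a subunit of the peptide transporter of the endoplasmic reticulum. Psmb8 changed by 0.95 ± 0.33 in Wnt4-deleted mice (adjusted p = 0.0717, or 0.0302 with the block) and by 0.56 ± 0.33 in WT mice, and Psmb9 by 0.86 ± 0.40 and 0.68 ± 0.40. Tap1 changed by -0.45 ± 0.23 and -0.38 ± 0.23. Psmb8 and Psmb9 did not overlap between fractions in Wnt4-deleted mice, and all 3 overlapped in WT mice.

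The members not yet described changed by -1.11 to 0.89 in Wnt4-deleted mice and by -0.95 to 0.88 in WT mice. None passed in the fit without the block, though some did under the alternatives below. Usp18, which removes Isg15 from proteins and damps the type I receptor, gave 0.89 ± 0.31 in Wnt4-deleted and 0.88 ± 0.31 in WT mice (adjusted p = 0.0817 and 0.0869, or 0.00726 and 0.00792 with the block). Ifit2, of a family that binds viral RNA, gave -1.11 ± 0.39 in Wnt4-deleted mice (adjusted p = 0.084, or 0.0131 with the block) and -0.35 ± 0.39 in WT mice. Over all 36 genes the arrays of the fractions did not overlap for 17 in Wnt4-deleted mice, beside 29.3% of all genes, 11 of them higher (15.1%) and 6 lower (14.2%). In WT mice they did not overlap for 10, beside 32.8%, with 7 higher (17.1%) and 3 lower (15.7%). The sign of the change was the same in both genotypes for 31 of 36.

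With the sets of title numbers as a block, 11 of the 36 genes passed in Wnt4-deleted mice, where 18.8% of all genes did. These were the 6 that passed without it and Usp18, Ifit2, Ifih1, Psmb8 and Ifi35. In WT mice 8 passed with the block, where 18.2% of all genes did, the 6 that passed without it with Usp18 and Ifi35.

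Leaving out single arrays changed some of these calls. Without array 16 only Isg20 passed in Wnt4-deleted mice. Without array 4 the calls of Dtx3l, Mx2 and Parp14 ended, without array 11 those of Gbp3, Mx2 and Parp14, without array 12 those of Dtx3l, Gbp3 and Parp14, without array 15 those of Dtx3l, Gbp3, Mx2 and Parp14, and without array 9 or 10 that of Parp14. In WT mice the calls of Ddx58, Dtx3l and Parp9 ended without array 1, 9, 10 or 14, while Isg20, Ifih1 and Irf1 passed with any array left out. Calls were also gained: without array 2, Ifit2, Parp9, Psmb8 and Psmb9 passed as well in Wnt4-deleted mice and Ifi35, Psmb8 and Psmb9 in WT mice. Without array 15, Ifih1, Irf8 and Usp18 passed in Wnt4-deleted mice and Irf8 in WT mice. The highest adjusted p among these losses was 0.136, for Parp14 without array 11, and none of these changes turned its sign.

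**Figure D3:**
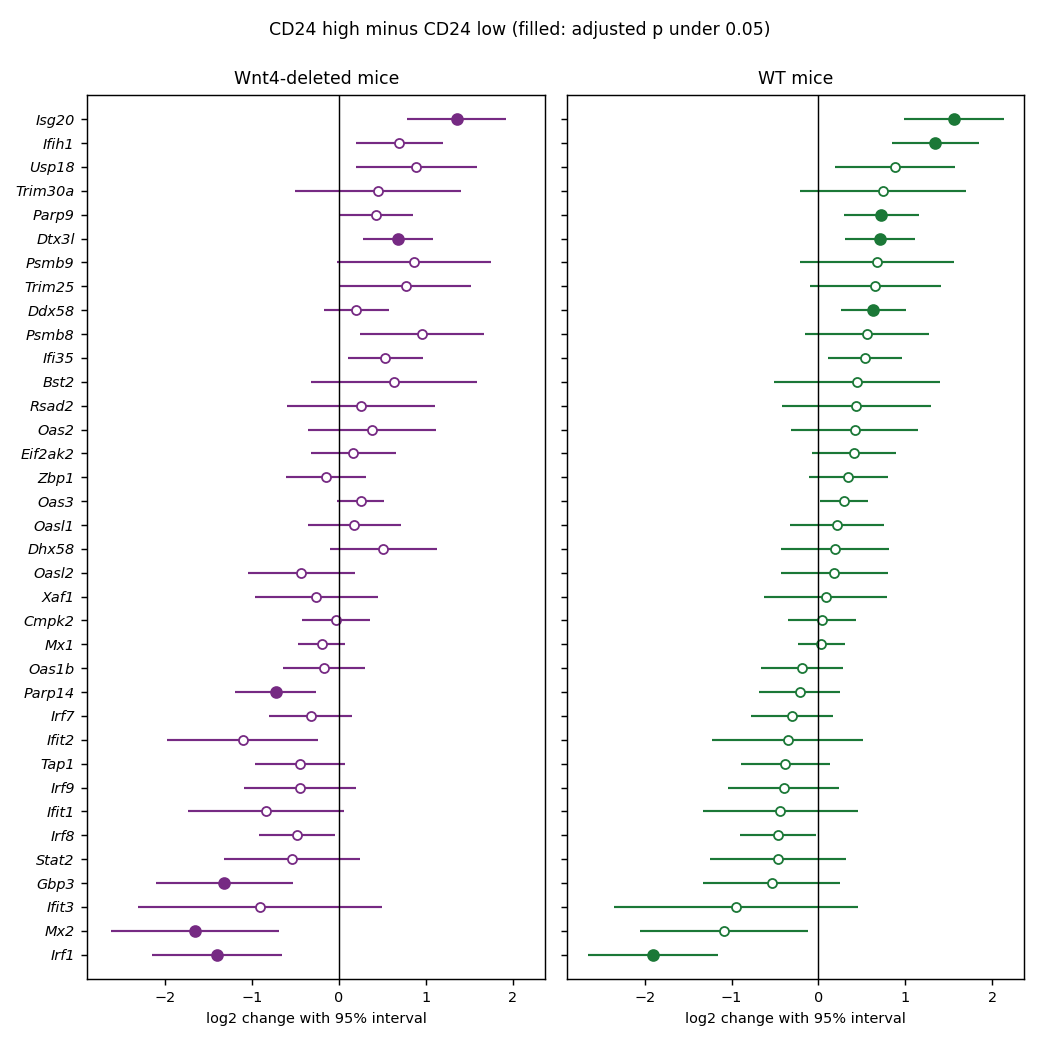
Log2 change of CD24 high minus CD24 low cells with its 95% interval for each of the 36 genes, in Wnt4-deleted mice (left) and WT mice (right), ordered by the WT change. Filled points have an adjusted p under 0.05; 6 genes are filled in each panel, with Isg20 at the top and Irf1 at the bottom.

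The second question was whether loss of Wnt4 moved these genes. In CD24 high cells none of the 36 passed and none had an unadjusted p under 0.05, against 0.00502% and 1.99% of all genes (limma). The changes were small and lay on both sides of 0, with 16 genes above 0, where 43.4% of all genes were, and 20 below, a median of -0.04 beside -0.03 over all genes, and a range from -0.35 to 0.55. The standard errors ran from 0.12 to 0.64, so changes of that size could not be told from the spread between arrays.

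Bst2, the tetherin that holds budding viruses at the cell surface, and Psmb9 had the largest changes in CD24 high cells. Bst2 stood at 9.44, 8.99 and 9.48 in Wnt4-deleted cells and at 8.07, 8.32 and 9.89 in WT cells, so the groups overlapped (0.55 ± 0.44, adjusted p = 1.0). Psmb9 stood at 9.60, 9.82 and 10.1 in Wnt4-deleted and 8.21, 9.54 and 10.1 in WT cells (0.54 ± 0.40, adjusted p = 1.0). In both genes the spread was wider among the WT arrays, where array 2 was lowest and array 14 highest. Without array 2 the change was 0.20 for Bst2 and 0.0039 for Psmb9, and without array 14 it was 1.11 and 0.96. Psmb8 shared this order, with 8.63, 8.76 and 9.07 in Wnt4-deleted and 7.60, 8.64 and 9.02 in WT cells (0.40 ± 0.33), and its change was -0.01 without array 2. Ifit3, an RNA-binding partner of Ifit1, gave 5.31, 6.36 and 5.93 in Wnt4-deleted and 5.11, 4.94 and 6.27 in WT cells (0.43 ± 0.64). Irf8, a factor of macrophage and dendritic cell development, was the only member whose arrays did not overlap, at 6.14, 6.16 and 5.94 in Wnt4-deleted and 6.16, 6.17 and 6.20 in WT cells, where 7.0% of all genes did not overlap, 2.04% higher and 4.97% lower. Arrays 12 and 2 were equal in the digits printed, and its change was -0.10 ± 0.20.

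In CD24 low cells again none of the 36 passed and none had an unadjusted p under 0.05, against 0.00502% and 3.06% of all genes. More of the changes were positive here: 27 of 36 lay above 0, where 45.4% of all genes did, and the median was 0.19 beside -0.02, with a range from -0.46 (Irf1) to 0.76 (Ifit2). Ifit2 did not overlap between genotypes, with 5.45, 6.04 and 6.14 in Wnt4-deleted and 4.65, 5.39 and 5.32 in WT cells (0.76 ± 0.39, unadjusted p = 0.0815 in limma without the block, adjusted p = 1.0). Oas3, which makes the oligoadenylates that activate RNase L, did not overlap in the other direction, at 4.87, 4.87 and 4.82 in Wnt4-deleted and 4.93, 5.03 and 5.07 in WT cells (-0.15 ± 0.13). For 6.77% of all genes the arrays did not overlap, 2.65% higher and 4.12% lower. Both Ifit2 and Oas3 lay under the brightness filter, and with that filter neither was tested. Ifit1, which binds RNA lacking a methylated cap, gave 5.26, 6.83 and 6.18 in Wnt4-deleted and 4.87, 5.58 and 6.11 in WT cells (0.57 ± 0.41). Gbp3 gave 5.95, 7.02 and 6.89 against 5.51, 6.02 and 6.88 in WT cells (0.48 ± 0.36), and Oasl2, a ubiquitin-like relative of the Oas enzymes, gave 6.79, 7.07 and 7.11 against 6.24, 6.27 and 7.02 in WT cells (0.48 ± 0.28). In these 3 genes array 13 was the highest WT array and lay within the Wnt4-deleted range, as array 9 did for Ifit1 and Gbp3.

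Markers of some other cells also lay above 0 in CD24 low cells. All 11 endothelial markers and all 8 skeletal muscle markers were also above 0 in that comparison, with medians of 0.44 and 0.37 and none past the threshold. Of the other lists, 5 of 6 pericyte, 5 of 7 leukocyte, 9 of 16 macrophage and dendritic, 6 of 11 lymphocyte, 4 of 8 fibroblast, 3 of 11 luminal and 1 of 11 myoepithelial markers lay above 0. The part of these cells was not tested. Among the members, 4 of the 6 role groups had a median of 0.20 or more. The 6 genes of ubiquitin and ADP-ribose transfer were all above 0 (median 0.20), the 5 transcription factors had 4 below 0 (median -0.08), and the 3 antigen processing genes were above 0 (median 0.18). Within the sets 1 to 4, 9 to 12 and 13 to 16, Ifit2 changed by 0.80, 0.65 and 0.82 in CD24 low cells, Oasl2 by 0.55, 0.80 and 0.09, Ifit1 by 0.38, 1.25 and 0.07, and Gbp3 by 0.44, 1.0 and 0.01. The Ifit2 difference was of similar size in each set, while that of the other 3 genes was near 0 in the set 13 to 16.

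The difference between the effects of the deletion, CD24 high minus CD24 low, was tested as an interaction. No member passed, with 0.0% of all genes past the threshold. Without the block none had an unadjusted p under 0.05, where 1.37% of all genes did. For 27 of 36 genes the difference lay below 0 and for 9 above it, where 49.4% of all genes lay above it, with a median of -0.07 beside -0.0031 over all genes. The largest were Gbp3 at -0.78 ± 0.51, Ifit2 at -0.75 ± 0.56, Ifih1 at -0.65 ± 0.32, Oasl2 at -0.61 ± 0.40 and Mx2 at -0.57 ± 0.62. Without the block the 95% intervals of all 5 reached 0, and that of Ifih1 ran from -1.36 to 0.06. With the sets as a block Ifih1 gave -0.65 ± 0.25 (unadjusted p = 0.0248 in limma). It was then the 1 member with an unadjusted p under 0.05, where 1.625% of all genes were, and no member passed.

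**Figure D4:**
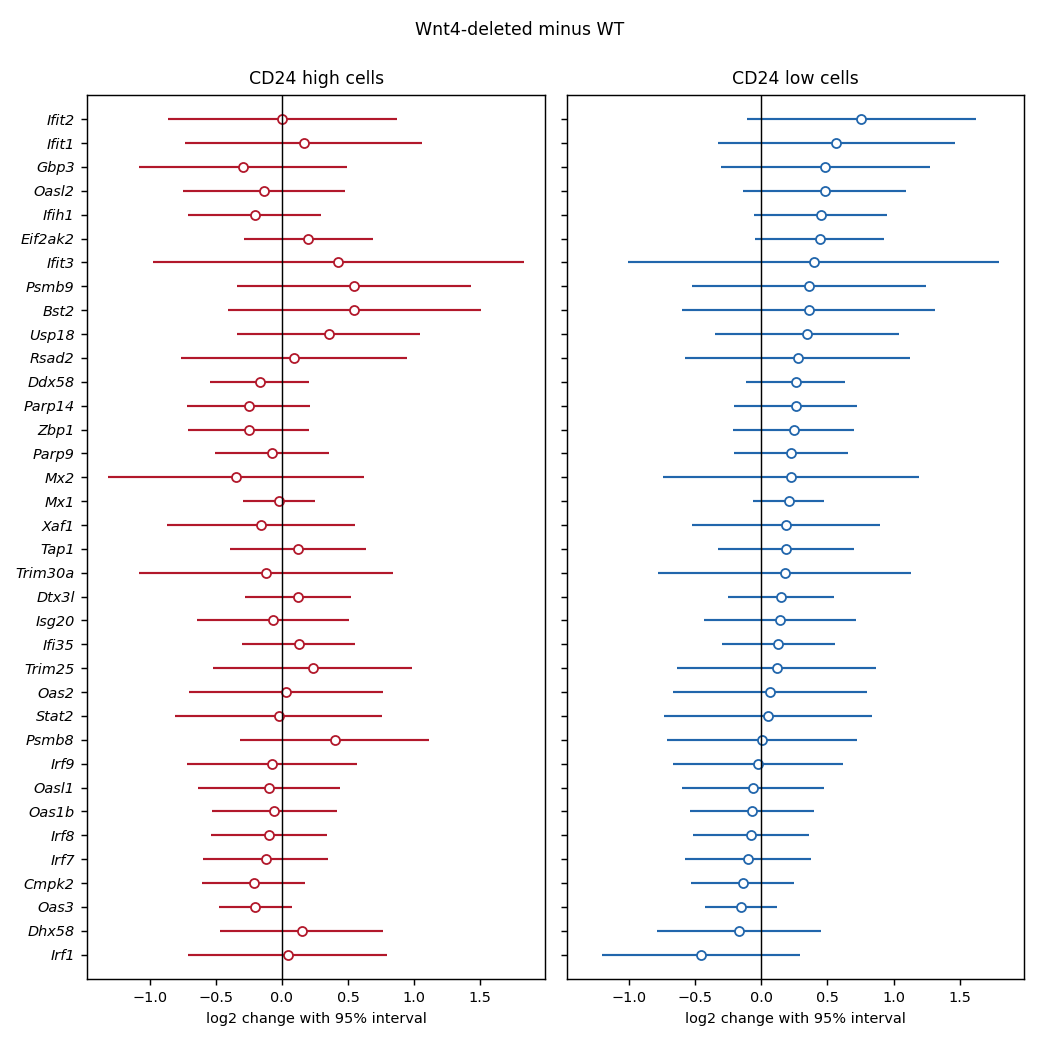
Log2 change of Wnt4-deleted minus WT cells with its 95% interval for each of the 36 genes, in CD24 high cells (left) and CD24 low cells (right), ordered by the change in CD24 low cells. Every interval, from the fit without the block, spans 0. In CD24 high cells 16 points lie right of 0, and in CD24 low cells 27 do.

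The third pattern lay across the sets of title numbers and not between the groups. The labels do not say what a set is. The mean over 4 arrays was lowest in the set 1 to 4 for 31 of the 36 genes, where 31.2% of all genes had their lowest mean in that set, and highest there for 1, where 40.5% of all genes were. In a fit with the group and the set, an F-test of the set called none of the members at an adjusted p of 0.05, beside 0.0351% of all genes, and 14 had an unadjusted p under 0.05, beside 11.9% of all genes. The arrays 9 to 12 minus 1 to 4 gave 33 of 36 changes above 0, where 43.9% of all genes were, with a median of 0.30 beside -0.03 and 11 unadjusted p-values under 0.05, beside 12.9% of all genes. The arrays 13 to 16 minus 1 to 4 gave 33 of 36 above 0, where 46.9% of all genes were, with a median of 0.38 beside -0.01 and 17 unadjusted p-values under 0.05, beside 11.2% of all genes. The arrays 13 to 16 minus 9 to 12 gave 19 of 36 above 0, where 52.1% of all genes were, with a median of 0.04 and 5 unadjusted p-values under 0.05, beside 6.56% of all genes. None passed in any of these 3 comparisons, where 0.0451%, 0.0251% and 0.00502% of all genes did; the comparisons share arrays and are not independent of each other.

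Within each group, too, the array of the set 1 to 4 was the lowest for more members than either other array. In WT CD24 low cells array 1 was the lowest of its group for 28 of 36 genes and array 13 the highest for 31, where 32.2% and 32.3% of all genes were. In Wnt4-deleted CD24 low cells array 3 was the lowest for 24 genes, where 33.9% of all genes were. In CD24 high cells array 4 was the lowest of the Wnt4-deleted group for 20 genes and array 2 the lowest of the WT group for 20, where 39.5% and 34.2% of all genes were. The median over the 36 genes of array 13 minus array 1 was 0.64, beside -0.01 over all genes, and that of array 11 minus array 3 was 0.56, beside -0.02. Array 9 minus array 1 gave 0.35, beside -0.04, and array 15 minus array 3 gave 0.32, beside 0.0. In CD24 high cells the medians were 0.27 for array 12 minus array 4, 0.11 for array 16 minus array 4, 0.37 for array 14 minus array 2 and 0.06 for array 10 minus array 2. In the last, 21 of 36 genes were higher, beside 41.7% of all genes.

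Ifit3 had the largest difference between sets. Its mean was 6.72 over arrays 13 to 16, 6.26 over arrays 9 to 12 and 5.37 over arrays 1 to 4, and arrays 13 to 16 minus 1 to 4 gave 1.35 ± 0.40 (unadjusted p = 0.00722 in limma, adjusted p = 0.237). Psmb9 had means of 9.65, 9.11 and 8.77 over the same sets, with 0.88 ± 0.24 (adjusted p = 0.209), and Bst2 had 9.30, 8.54 and 8.44, with 0.86 ± 0.27 (adjusted p = 0.26). Mx2 and Ifit2, both under the brightness filter, were highest in the middle set. Mx2 had means of 5.47 over arrays 13 to 16, 5.75 over arrays 9 to 12 and 4.87 over arrays 1 to 4, and arrays 9 to 12 minus 1 to 4 gave 0.87 ± 0.29 (adjusted p = 0.252). Ifit2 had 5.31, 5.47 and 4.61, with 0.86 ± 0.22 (adjusted p = 0.166). The exceptions included Isg20, with means of 8.28, 7.64 and 7.96, which was lowest in the set 9 to 12.

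Markers of some other cell types varied along the same sets in CD24 low cells. Arrays 1 and 3, the lowest for most members, had endothelial marker means of 6.54 and 6.44, beside 8.0 to 9.13 on the other CD24 low arrays, and skeletal muscle means of 7.76 and 8.85, beside 5.34 to 5.77. The macrophage and dendritic marker means of arrays 3 and 1 were 4.52 and 4.64, beside 4.98 to 5.89 on arrays 13, 15, 11 and 9. Pericyte means were 5.89 and 5.72 on arrays 3 and 1, beside 6.08 to 7.30 on the other CD24 low arrays. Leukocyte means were 4.45 and 4.59, beside 4.89 to 5.58. Fibroblast markers parted only narrowly, and lymphocyte markers did not part in this way. Fibroblast means were 6.32 and 6.29 on arrays 3 and 1, beside 6.37 on array 13 and 7.04 to 9.25 on arrays 15, 11 and 9. Lymphocyte means were 4.02 and 4.20, beside 4.17 to 4.32. In CD24 high cells the endothelial mean was 5.02 and 5.29 on arrays 4 and 2, beside 5.36 to 6.39 on the others. The pericyte mean was 4.91 and 5.13, beside 5.15 to 5.54, and the skeletal muscle mean 5.42 and 5.47, beside 5.19 to 5.36. Fibroblast means did not part, at 5.68 and 5.81 beside 5.70 to 6.28. Macrophage and dendritic, leukocyte and lymphocyte means were lowest on array 4 (4.46, 4.31 and 3.96) and highest on array 2 (4.73, 4.65 and 4.34). The part of these cells in the difference between sets was not tested. With the CD24 low arrays alone 1 member passed, Trim30a, where 5.09% of all genes passed, and 21 had an unadjusted p under 0.05, where 21.5% of all genes did. With the CD24 high arrays alone none passed, as for all genes, and 4 had an unadjusted p under 0.05, where 3.73% of all genes did. Without array 2, the members Isg20, Psmb9, Usp18 and Xaf1 passed, where 5.65% of all genes did.

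**Figure D5:**
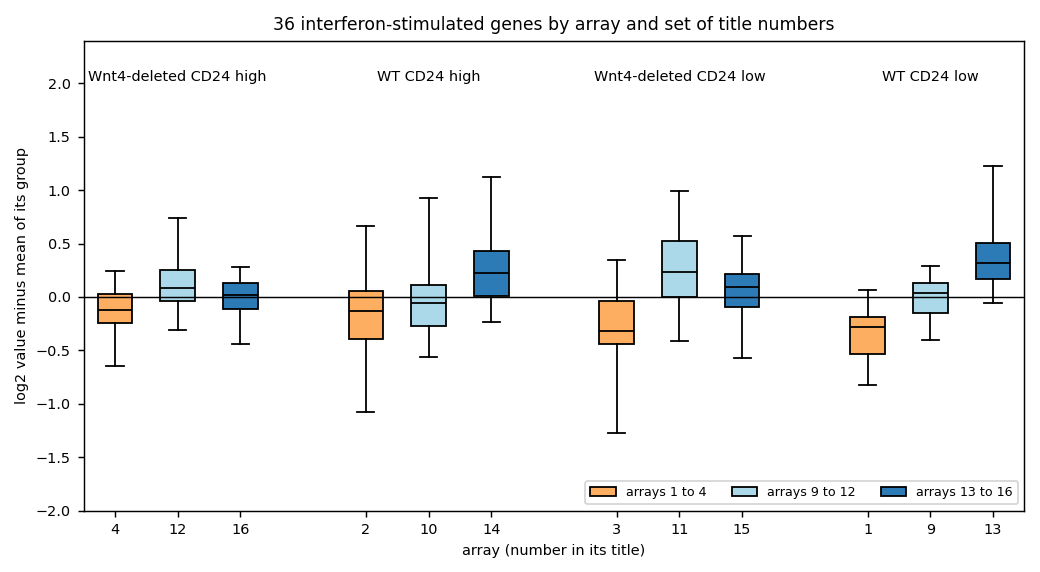
Distribution of the 36 genes on each array as the log2 value minus the gene's mean over the 3 arrays of that group. Boxes span the quartiles with the median, whiskers the full range, and colours the sets of title numbers. The box of the set 1 to 4 has the lowest median in every group, from -0.12 on array 4 to -0.32 on array 3, and array 13 has the highest, 0.32.

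The rest of the interferon pathway was read from lists of ligands, receptors, signalling proteins and sensors, negative regulators (Usp18 is also a member) and 60 further interferon-stimulated genes. None of their genes passed between genotypes in either fraction or in the interaction. Between fractions, none of 10 ligands passed in either genotype, and the value of Ifnb1, the interferon beta gene, lay between 3.02 and 3.76 on all arrays. Of 6 receptors, Ifnar1 was lower in CD24 high cells of WT mice, with 7.57, 7.96 and 7.60 in CD24 high against 8.38, 8.29 and 8.09 in CD24 low cells (-0.54 ± 0.15, adjusted p = 0.0292). In Wnt4-deleted mice its change was -0.28 ± 0.15 (adjusted p = 0.255). Ifnlr1, the receptor chain specific to type III interferon, gave 0.30 ± 0.16 in Wnt4-deleted and 0.44 ± 0.16 in WT mice, neither past the threshold.

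Of 18 signalling proteins and sensors, 1 was higher and 3 were lower in CD24 high cells of Wnt4-deleted mice, and 2 were higher and 3 lower in WT mice. For this list, as for the others here, 16.4% of all genes passed in Wnt4-deleted mice and 16.1% in WT mice. Myd88, the adaptor of most Toll-like receptors, fell by 0.69 ± 0.12 in Wnt4-deleted mice (adjusted p = 0.00201) and by 0.91 ± 0.12 in WT mice (adjusted p = 0.000299). Sting1, the adaptor of cytosolic DNA sensing, fell by 0.75 ± 0.16 and 0.96 ± 0.16, while Tlr4, the receptor for bacterial lipopolysaccharide, rose by 1.45 ± 0.39 and 1.82 ± 0.39. Of 9 negative regulators 1 was higher and 1 lower in Wnt4-deleted mice and 2 were lower in WT mice, and Socs3, an inhibitor of JAK kinases, fell in both, by 1.5 ± 0.44 and 1.85 ± 0.44.

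Of the 60 further interferon-stimulated genes, 3 were higher and 5 lower in CD24 high cells of Wnt4-deleted mice, and 3 were higher and 4 lower in WT mice. Irgm1, an immunity-related GTPase, fell by 1.96 ± 0.32 in Wnt4-deleted mice (adjusted p = 0.00164) and by 1.82 ± 0.32 in WT mice (adjusted p = 0.00262). Ifitm3, which hinders viral entry from endosomes, fell by 0.90 ± 0.14 and 1.06 ± 0.14, and Gbp5 fell by 1.97 ± 0.40 and 1.57 ± 0.40. Trim14, an adaptor of RNA sensing, rose by 1.77 ± 0.30 and 1.78 ± 0.30, and Slfn2 rose by 1.13 ± 0.27 and 0.89 ± 0.27. The median change of the list was -0.04 in Wnt4-deleted and 0.06 in WT mice, beside 0.01 and 0.02 over all genes. Like the 36 genes, this list held genes higher in either fraction, and it lay near the background of all genes in how many passed.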

How the data were processed

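Per the labels, Trizol-extracted RNA was amplified (Ovation Pico WTA kit) and given a biotin label (FL-Ovation kit) before hybridisation to 1 Affymetrix array per sample. The authors deposited log2 values made by RMA in Affymetrix Expression Console 1.1.2800; the log base follows from the method and the range of values, 1.62 to 13.8. RMA equalises the distributions of the arrays, so a change shared by most genes would not be seen. Precision is limited by the number of arrays. Of 35556 probesets, 21789 had 1 gene symbol, 1621 several and 12146 none; only the first were used, and the probeset with the highest mean stood for a gene with several. Near-identical relatives (Ifit, Oas, Mx, Gbp and Trim30 genes) may share signal.

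The listed genes and the other gene lists were chosen with earlier results of these data known. Tests were two-sided in limma 3.58.1 under R 4.3.3 (functions lmFit and eBayes), a mean being fitted for each group over 12 arrays (8 residual degrees of freedom, 11.05 after moderation) and Benjamini-Hochberg adjustment over 19938 genes. The sets of title numbers entered a second fit with the group, which is also the fit with a block. Arrays of 1 set deviated together in the Wnt4-deleted fractions (correlations 0.45, 0.53 and 0.18) and in CD24 low cells (0.70, 0.52 and 0.37), and not in each pair of the other comparisons; the pairing is read from the titles and these values, not from a stated design. The fit was tested on simulated data. Members that passed were named, filled to 5 per comparison by lack of overlap between the groups and then by size. Samples were grouped by title, and no member was left out for low values; 7 lay under the filter at percentile 40 of mean value (5.46). Alternatives were that filter, the mean of probesets, median centring, a trended robust prior, the compared groups alone, the sets as a block, arrays 9 to 16 alone, a threshold of 0.1 and each array left out. The statistical test used for the arrays is not given in the sources used here.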

Additional observations from a re-analysis of the deposited data

How the results depend on the processing

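The counts of members that passed had 119 alternatives, of which 107 stayed within 1.5 times the value given. Most of these were counts of 0 that stayed 0, between genotypes, in the interaction and between sets. The counts that moved were mostly those between fractions. In Wnt4-deleted mice the count between CD24 high and CD24 low cells was 6, and it was 11 with a threshold of 0.1, 11 with the sets of title numbers as a replicate block, and 1 to 10 with an array left out (10 without array 2, 3 without array 4, 11 or 12, and 1 without array 16). In WT mice it was 6, and 3 to 9 with an array left out (3 without array 1, 9 or 14 and 9 without array 2); the block gave 8. Over all groups, 10 of 18 pairs of arrays of 1 set deviated together with a correlation over 0.1 (range -0.14 to 0.70). The count between sets was 0, and 1 with the CD24 low arrays alone and 0 to 4 with an array left out (4 without array 2). The counts between genotypes were 0 under each alternative run, the block included. Of 596 alternatives of single genes, 553 kept direction and side of the threshold, 41 lost the call, 1 gained it and 1 turned: Psmb8 between genotypes in CD24 high cells was -0.0092 without array 2. Most of the 553 were for genes without a call to lose, and the losses were all between fractions. Fitting the compared groups alone ended the calls of Irf1, Mx2 and Parp14 in Wnt4-deleted mice and of Dtx3l, Ddx58 and Parp9 in WT mice, and added Ifi35, Ifit2, Psmb8 and Psmb9 in Wnt4-deleted mice and Irf8 and Mx2 in WT mice. The causes were not tested. With 3 arrays per group and standard errors of 0.12 to 0.64, smaller changes were not detectable.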
